A study of Mus musculus with 71 samples.

Results

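Late regions shared by p2 and pMN are stretches of chromatin that lay more open in p2 and in pMN progenitors than in p0-p1 progenitors on day 11 of differentiation, and not yet on day 5. They numbered 3099 of the 155738 intervals of the authors' table (1.99%). They were chosen on WT group means of log2(value + 5), where the value is the authors' normalised read count. Membership asked that the lower of p2 and pMN lay at least 1 above p0-p1 on day 11, that p2 and pMN then differed by less than 0.4, and that the lower of p2 and pMN lay less than 0.3 above p0-p1 on day 5. The values of WT days 5 and 11 chose these regions and are given below as a description, while WT days 7 and 9 and the MUT libraries took no part in the choice.

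In the ventral neural tube, progenitors are sorted into domains by a gradient of Sonic hedgehog. The p0 and p1 domains make ventral interneurons, p2 makes V2 interneurons, and pMN, which is marked by the transcription factor OLIG2, makes motor neurons and later oligodendrocyte precursors. Both p2 and pMN carry the homeodomain protein NKX6.1, which p0 and p1 lack. With time the same domains turn from making neurons to making glia, and the transcription factor NFIA is known for its part in that switch. ATAC-seq reads out where the transposase Tn5 can reach the DNA, and intervals open in only some cell types are often enhancers.

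The libraries came from mouse embryonic stem cells taken in culture through bFGF, the GSK3β inhibitor CHIR99021, and then retinoic acid with the Smoothened agonist SAG, with SAG alone from day 5. Live cells were fixed, transposed and stained inside the cell, and p2, pMN and p0-p1 cells were sorted (CaTS-ATAC), so a library holds 1 population of 1 genotype and day. There were 33 MUT and 38 WT libraries in 26 groups, 7 of 2 libraries and 19 of 3. The MUT groups were p2, pMN and p0-p1 on days 5, 7, 9 and 11, all labelled NFIAn, with 3 libraries each except on day 9, where each had 2. The WT groups labelled NFIAn were p2, pMN and p0-p1 on day 5 (2 libraries each), on day 7 (3 each) and on day 9 (3 of p2, 2 of pMN and 3 of p0-p1). The WT groups labelled NFIAp were p2 and pMN on day 9 and p2, pMN and p0-p1 on day 11, with 3 libraries each. The titles' NFIAn and NFIAp are taken here to mean sorted fractions lacking and carrying NFIA protein. The labels name neither the gene changed in MUT nor the number of clones or cultures behind the replicates. The p-values therefore cover only the variation among the libraries at hand, part or all of which could be technical. On day 11 genotype and NFIA fraction cannot be told apart, and between WT day 5 and WT day 11 day and fraction cannot be told apart. Since the table identifies its intervals by number alone, the sorted populations were not checked against marker genes here, and regions are named by their interval number.

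Reads in the intervals, recovered from the table, ran from 20034731 to 31315134 per library. All 3099 regions passed the filter on low values and were tested with 155734 intervals in all. Intervals were tested with limma, and a call is a Benjamini-Hochberg adjusted p under 0.05 with an absolute log2(value + 5) change of 1 or more. This scale understates the change of low intervals. Counts at an unadjusted p under 0.05 were made for the regions alone, so they have no share of all intervals beside them. Among the 71 libraries 3, none of them used to choose the regions, went against their labels. In a run of 5 consecutively numbered intervals the library labelled WT D7 pMN replicate 3 had 0 reads and the library labelled MUT D7 pMN replicate 3 had 213, while the 32 MUT and 36 WT libraries that were not doubted had 0 to 1 in MUT and 148 to 519 in WT. A score of pMN over p2 used intervals at least 1 higher in pMN, and those at least 1 higher in p2, on WT day 11. It was the median log2(value + 5) of the former minus that of the latter. Replicate 2 of the libraries labelled WT D9 p2 NFIAp stood at -0.07, against -0.83 and -1.06 in replicates 1 and 3. The pMN libraries of that day lay between -0.06 and 0.62, and those of NFIAn p2 between -1.56 and -1.49. Replicates 1 and 3 of NFIAp p2 thus also lay nearer to pMN in this score than the NFIAn p2 libraries. Counts that rest on these libraries are given with and without them.

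On WT day 11, the values that chose the regions, the median region had 107, 80.4 and 72.5 normalised reads in the 3 p2 libraries and 104, 86.1 and 75.2 in the 3 pMN libraries, against 32.2, 32.0 and 23.6 in the 3 p0-p1 libraries. On WT day 5 it had 9.30 and 8.68 in p2 and 7.58 and 8.20 in pMN, against 10.2 and 10.1 in p0-p1. The regions held between 1.67% and 2.23% of all normalised reads in the p2 and pMN libraries of WT day 11, against 0.627% to 0.855% in those of p0-p1, and between 0.349% and 0.388% in the WT day 5 libraries of p2 and pMN. In bulk libraries a smaller share of cells with a region open and a lower accessibility per cell cannot be told apart. The mean of p2 and pMN lay 1.32 above p0-p1 in the median region on WT day 11 (log2; interquartile range 1.18 to 1.53) and 0.07 below it on WT day 5.

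**Figure D1:**
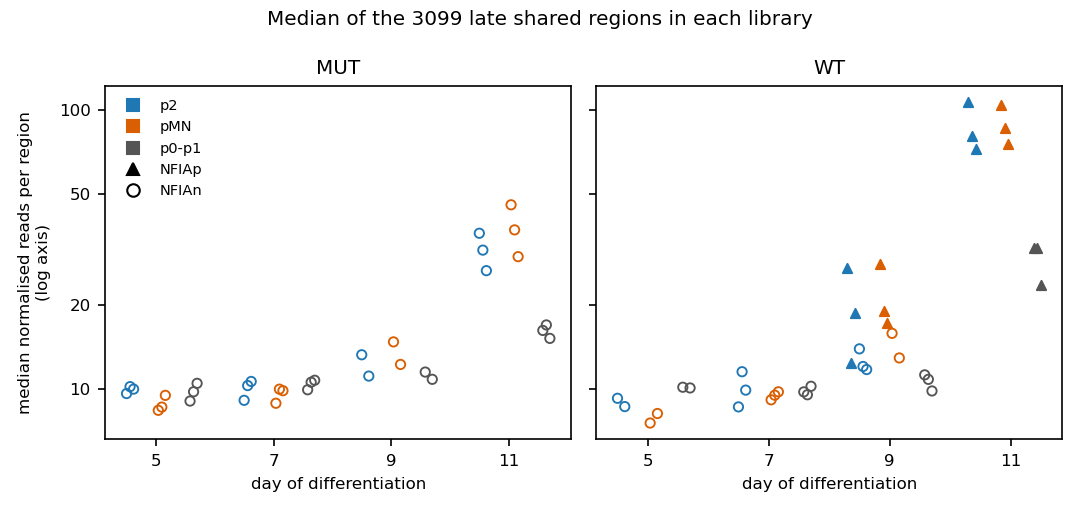
Median normalised reads over the 3099 regions in each of the 71 libraries (log axis) by day, MUT in the left panel and WT in the right. Each point is 1 library, colours give the population, filled triangles are NFIAp and open circles NFIAn; p2 and pMN of WT day 11 sit between 72.5 and 107, those of MUT day 11 between 26.6 and 45.8, and all libraries of days 5 and 7 between 7.58 and 11.6.

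Most of the regions opened with time in p2 and pMN, and many opened less strongly in p0-p1 too. Between WT days 5 and 11, 1556 regions (50.2%) gained at least 1 on the log2 scale in p2, pMN and p0-p1, and 1162 (37.5%) gained that much in p2 and pMN with p0-p1 moving by less than 1 either way. In the 1556, the median gain was 3.31 in p2 and 3.46 in pMN, against 1.81 in p0-p1, and in the 1162 it was 1.96 in p2 and 2.09 in pMN, against 0.52 in p0-p1. Another 111 regions (3.58%) were lost in p0-p1, by a median of 1.40, and moved by less than 1 in p2 and pMN. A further 16 lost at least 1 in p2, pMN and p0-p1, 3 gained in p2 and pMN while p0-p1 lost, and 251 fell in none of these classes. A gain of at least 1 was seen in 89.1% of the regions in p2, 90.3% in pMN and 50.2% in p0-p1. Over all intervals these shares were 25.7%, 24.5% and 27.2%. The shares of all intervals in each class are not given here. These classes use the same values as the rule, which asked for high p2 and pMN on WT day 11, and carry no test.

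The regions of widest day 11 difference in WT show how unlike each other the members are at other times. They were taken among regions with a mean over all libraries at or above the median of all intervals (well covered regions). That mean includes the WT day 11 libraries that chose the regions. A region can therefore pass through those libraries and lie near the floor in others, as Interval_19585 did with MUT group means of 2.41 to 7.04. Interval_84730 had 363, 365 and 354 normalised reads in p2 and 334, 372 and 401 in pMN on WT day 11, against 54.6, 53.4 and 45.4 in p0-p1. On WT day 7 the same interval already had 96.4, 72.3 and 79.6 in p2 and 99.8, 93.3 and 105 in pMN, against 19.6, 8.51 and 25.7 in p0-p1, with no overlap. Interval_98011, the widest of these, had 473, 412 and 337 in p2 and 394, 385 and 355 in pMN on WT day 11, against 53.6, 48.9 and 42.7 in p0-p1. Interval_98011 was not apart on WT day 7, where it had 67.1, 26.04 and 45.3 in p2 and 56.2, 41.3 and 26.2 in pMN, against 33.1, 37.2 and 35.9 in p0-p1. Interval_19585 had 515, 358 and 335 in p2 and 586, 490 and 418 in pMN on WT day 11, against 80.0, 67.6 and 52.6 in p0-p1. Up to WT day 9 it stayed at or under 22.3.

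At the thresholds of the rule, members and non-members lay side by side. The day 11 cut fell between Interval_38700 and Interval_45443, both 1.00 above p0-p1 when rounded, of which Interval_38700 is a member. The cut on the gap between p2 and pMN fell between Interval_108095 at 0.3991 and Interval_87093 at 0.4005, and the day 5 cut between Interval_104561 at 0.299 and Interval_131654 at 0.301. The day 11 cut alone held in 4978 intervals, and with the cut on the gap in 3788.

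The first question for the libraries not used by the rule is when p2 and pMN parted from p0-p1. In WT this was not yet seen on day 7 and began on day 9. On WT day 7 the median region had 8.66, 11.6 and 9.95 normalised reads in the p2 libraries and 9.18, 9.54 and 9.81 in the pMN libraries, against 9.80, 9.57 and 10.3 in the p0-p1 libraries, so the groups overlapped. The mean of p2 and pMN lay 0.03 above p0-p1 in the median region, against -0.02 over all intervals. Of the 3099 regions 22 were called higher in p2 and pMN, against a background of 2.82% of the intervals tested, and 1 was called lower, against 1.94%. Without the library labelled WT D7 pMN replicate 3 these counts were 19 and 4 and the median difference was 0.02, and leaving out WT D7 p0-p1 replicate 1 gave 11 called lower. On WT day 7 every p2 and pMN library lay above every p0-p1 library in 108 regions, against 6.12% of all intervals, and below in 57, against 5.76%. Without the doubted library these counts were 115, against 6.51%, and 78, against 6.62%.

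On WT day 9 the NFIAn libraries had 14.0, 12.1 and 11.8 normalised reads in the median region in p2 and 15.9 and 13.0 in pMN, against 11.3, 10.9 and 9.88 in p0-p1. The p2 and pMN libraries lay above those of p0-p1 without overlap. The difference was small, a median of 0.23 on the log2 scale against 0.01 over all intervals, but it was above 0 in 2360 of the regions (76.2%). Limma called 89 regions higher, against a background of 0.746%, and none lower, against 3.37%, with 29 lower at an unadjusted p under 0.05 and 2 called lower by edgeR. In 450 regions (14.5%) every p2 and pMN library lay above every p0-p1 library, against 6.19% of all intervals, and in 27 below, against 9.98%. The count called rested partly on pMN, being 53 without WT D9 pMN NFIAn replicate 1 and 145 without replicate 2.

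Interval_91369 and Interval_19729 had the largest WT day 9 differences among well covered regions. Interval_91369 had 150, 58.2 and 55.5 normalised reads in p2 and 225 and 82.8 in pMN, against 35.7, 28.1 and 14.8 in p0-p1 (log2 difference 1.87, SE 0.35, limma adjusted p 6.7e-05). Each p2 and pMN library of Interval_91369 lay above those of p0-p1, and replicate 1 was the highest in p2, pMN and p0-p1. Interval_19729 had 153, 111 and 92.6 in p2 and 267 and 196 in pMN, against 47.0, 49.8 and 29.6 in p0-p1 (1.87, SE 0.25, limma adjusted p 7.8e-08). Interval_91369 lies in the longest run of consecutively numbered members, which holds 4, and Interval_19729 lies in a run of intervals that shift together between the genotypes.

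The MUT libraries ask whether the difference arises without the NFIAp fraction and in the other genotype. On MUT days 5 and 7 it was not seen: the median region had 8.42 to 10.2 normalised reads in p2 and pMN on day 5, against 9.09 to 10.5 in p0-p1, and 8.92 to 10.7 on day 7, against 9.97 to 10.8. On MUT day 5, 14 regions were called higher, against a background of 6.46%, and 23 lower, against 1.92%. The count lower was 48 without MUT D5 p0-p1 replicate 1 and 36 without MUT D5 pMN replicate 3. On MUT day 7, 21 were called higher, against 2.68%, and 13 lower, against 2.52%, with 26 and 14 once the library labelled MUT D7 pMN replicate 3 was left out. The count lower on MUT day 7 ran from 7 without p2 replicate 1 to 24 without p0-p1 replicate 1, and every p2 and pMN library lay above every p0-p1 library in 106 regions (3.42%), against 7.13% of all intervals, and below in 141, against 7.68%. Without the doubted library these MUT day 7 counts were 125, against 8.12%, and 170, against 8.46%. On MUT day 5 these counts were 111, against 10.3%, and 147, against 8.58%. The day 5 cut of the rule left out intervals already apart on WT day 5, while the background keeps them. In the mean of p2 and pMN on WT day 5, 0.129% of the regions lay at least 1 above p0-p1, against 6.54% of all intervals. The part of this in the low shares called higher on MUT days 5 and 7 and WT day 7 was not tested.

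On MUT day 9 the median region had 13.3 and 11.2 normalised reads in p2 and 14.8 and 12.3 in pMN, against 11.5 and 10.9 in p0-p1. The lower p2 library lay inside the p0-p1 range, and the median difference was 0.19, against 0.02 over all intervals. Limma called 92 regions higher, against a background of 1.52%, and none lower, against 3.10%, with 36 lower at an unadjusted p under 0.05 and 7 called lower by edgeR. The count higher was 39 without MUT D9 p0-p1 replicate 2 and 61 without MUT D9 pMN replicate 1. Of the 89 regions called on WT day 9, 37 (41.6%) were among these 92, and they made up 40.2% of the 92. A MUT day 9 difference of at least 1, called or not, was seen in 98 regions, against 1.56% of all intervals. Every p2 and pMN library lay above every p0-p1 library in 563 regions on MUT day 9, against 12.5%, and below in 111, against 13.6%.

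The size of the day 9 difference was also compared between the genotypes in the NFIAn libraries. The MUT difference minus the WT difference was -0.05 in the median region, against 0.02 over all intervals. Limma called no region in either direction, against a background of 0% higher and 0% lower, and edgeR called none. At an unadjusted p under 0.05, 27 regions were higher in MUT and 45 lower, with no background share at that cut.

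**Figure D2:**
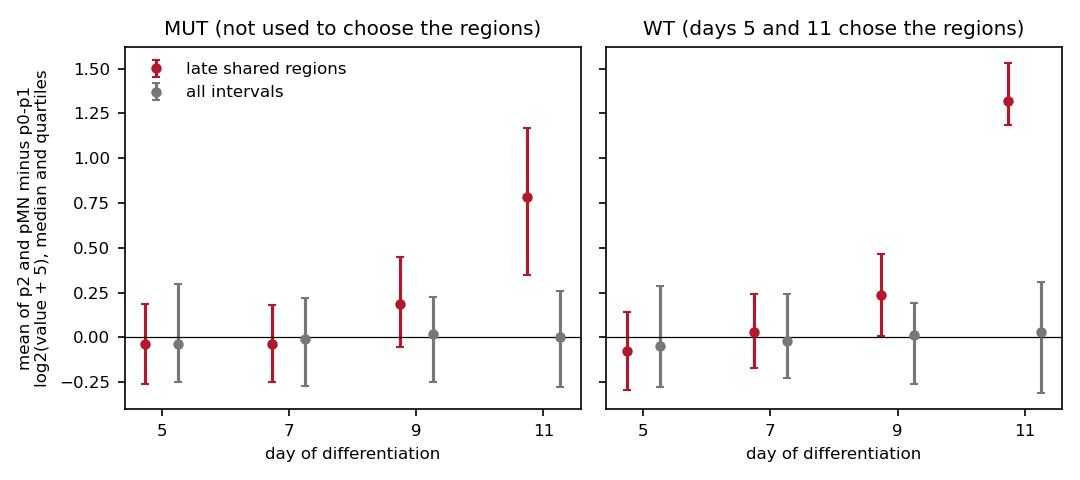
Median (point) and quartiles (bars) over regions of the mean of p2 and pMN minus p0-p1, on the log2(value + 5) scale, by day, for the 3099 regions (red, left of each pair) and all intervals (grey), MUT in the left panel and WT in the right. The regions lie near 0 on days 5 and 7 in both genotypes, reach 0.19 in MUT and 0.23 in WT on day 9, and 0.78 in MUT and 1.32 in WT on day 11, where the WT value was fixed by the rule.

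On MUT day 11 the regions were more open in p2 and pMN than in p0-p1. The median region had 36.2, 31.5 and 26.6 normalised reads in the p2 libraries and 45.8, 37.2 and 29.9 in the pMN libraries, against 16.3, 17.0 and 15.2 in the p0-p1 libraries. The groups did not overlap at that median. The difference was 0.78 in the median region (interquartile range 0.35 to 1.17), against 0.00 over all intervals, and it was above 0 in 2841 regions (91.7%). Limma called 1117 regions (36.0%) higher in p2 and pMN, against a background of 2.96%, and none lower, against 4.95%, with 10 lower at an unadjusted p under 0.05 and 4 called lower by edgeR. In 1651 regions (53.3%) every p2 and pMN library lay above every p0-p1 library, against 10.7% of all intervals, and in 9 every one lay below, against 10.7%. The count called was 1393 with edgeR, but 579 with a pseudocount of 20. Among the 1331 regions with a mean of at least 30 it was 679, a larger share than the 36.0% of all 3099. The share of all intervals under that filter is not given here.

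Regions called on MUT day 11 included most of those already called on day 9. Of the 89 called on WT day 9, which share no library with MUT day 11, 71 (79.8%) were among the 1117. The share among all 3099 regions was 36.0%. The 71 made up 6.36% of the 1117. Of the 92 called on MUT day 9, 76 (82.6%) were among the 1117 and made up 6.80%. Across the 3099 regions, the MUT day 11 difference had a Pearson r of 0.489 with the WT day 9 difference and 0.512 with the MUT day 9 difference. These are correlations across regions, which are not replicates and share their read depth. The overlaps and correlations over all intervals are not given here, so persistence was not shown to be particular to the regions.

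Interval_90990 and Interval_139929 had the largest MUT day 11 differences among well covered regions. Interval_90990 had 173, 137 and 132 normalised reads in p2 and 135, 111 and 108 in pMN on MUT day 11, against 6.85, 18.8 and 17.0 in p0-p1 (2.89, SE 0.23, limma adjusted p 6.3e-16). In p2, Interval_90990 was already at 36.5, 38.7 and 41.9 on MUT day 5, against 11.4, 16.7 and 13.7 in p0-p1. Interval_139929 had 225, 207 and 146 in p2 and 362, 297 and 206 in pMN on MUT day 11, against 37.7, 36.7 and 28.7 in p0-p1 (2.59, SE 0.24, limma adjusted p 3.2e-13). Both were more open in p2 and pMN of MUT than of WT on day 11, where Interval_90990 had 47.0 to 93.7 and Interval_139929 had 37.9 to 73.6 in WT p2 and pMN. Interval_139929 lies in a run of intervals that shift together between the genotypes.

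Between MUT days 5 and 11 the difference itself grew. The gap of p2 and pMN to p0-p1 widened by 0.80 in the median region, against 0.04 over all intervals. Limma called the widening in 1124 regions, against a background of 4.74%, and a narrowing in 1, Interval_98825, against 11.3%. The count was 660 with a pseudocount of 20. Among the fewer regions with a mean of at least 30 it was 663, a larger share than among all the regions. Among well covered regions Interval_139929 widened most (3.00, SE 0.34, limma adjusted p 1.6e-10), followed by Interval_23393 (2.78, SE 0.41, limma adjusted p 2.1e-07).

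Interval_23393 had 156, 125 and 120 normalised reads in p2 and 328, 237 and 182 in pMN on MUT day 11, against 26.5, 33.1 and 29.6 in p0-p1. On MUT day 5 it had 8.59, 7.96 and 18.2 in p2 and 12.2, 10.8 and 12.7 in pMN, against 18.2, 10.8 and 21.0 in p0-p1, and the groups overlapped. Interval_98825, the exception, had 71.1, 43.2 and 61.1 in pMN on MUT day 5, against 12.5, 19.6 and 8.41 in p0-p1, and 58.3, 27.7 and 26.6 in p2 and 57.8, 34.3 and 34.5 in pMN on MUT day 11, against 45.4, 38.5 and 32.2 in p0-p1. The narrowing of Interval_98825 was -1.19 (SE 0.33, limma adjusted p 0.0041), -0.98 without MUT D5 p0-p1 replicate 3 and -0.78 with a pseudocount of 20, both under the size needed for a call. Interval_23393 lies in a run of intervals that shift together between the genotypes.

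The widening came with gains in p2 and pMN that were more frequent than in the table at large, while gains in p0-p1 were not. Between MUT days 5 and 11, 1500 regions rose in p2, against a background of 22.4%, and 89 fell, against 17.9%. In pMN 1713 rose, against 19.7%, and 55 fell, against 19.5%. In p0-p1 752 rose (24.3% of the regions), against 24.1%, and 205 fell, against 17.4%. The median change was 0.95 in p2, 1.21 in pMN and 0.32 in p0-p1 (limma, log2 scale), against 0.02, 0.00 and 0.05 over all intervals. Regions that rose in p2 and pMN without a call in p0-p1 numbered 689 (22.2%), against 3.52% of all intervals, and 730 (23.6%) rose in p2, pMN and p0-p1, against 12.3%. With a pseudocount of 20 the count that rose in p0-p1 was 391 and that which fell 116. Among the fewer regions with a mean of at least 30, 819 rose in p2 and 906 in pMN, larger shares than among all the regions.

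**Figure D3:**
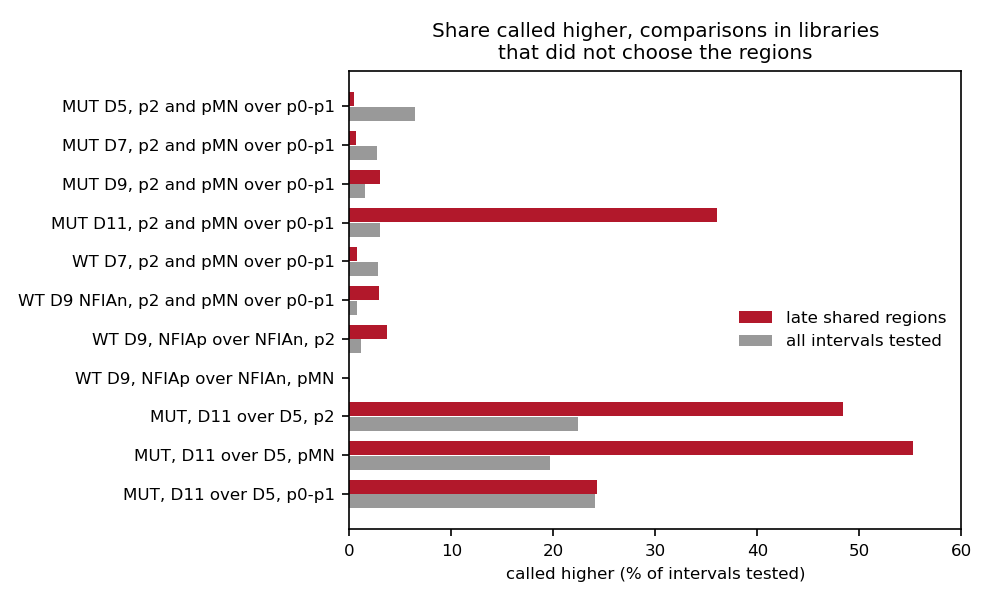
Percentage called higher by limma among the 3099 regions (red, upper bar of each pair) and among all intervals tested (grey), for 11 comparisons in libraries that did not choose the regions. The ratio of the regions to all intervals is highest on MUT day 11 (36.0% against 2.96%), lie below all intervals on MUT days 5 and 7 and WT day 7, and lie level with all intervals for the MUT p0-p1 change between days 5 and 11 (24.3% against 24.1%).

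Within MUT day 11, p2 and pMN, which the rule held together in WT, lay close to each other. The p2 libraries were lower than the pMN libraries by 0.18 in the median region, against -0.03 over all intervals. No region was called higher in p2, against a background of 2.86%, and 9 were called lower, against 0.654%. At an unadjusted p under 0.05, 49 regions were higher in p2 and 348 lower, with no background share at that cut, and edgeR called 3 and 20. The difference was above 0 in 27.3% of the regions, against 46.6% of all intervals. The count lower was 40 without MUT D11 pMN replicate 3, and the count higher was 5 without MUT D11 p2 replicate 3.

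Set beside WT day 11, MUT day 11 showed lower values in p2 and pMN and a smaller drop in p0-p1. The WT values chose the regions, so this is a description with no test, and the MUT libraries were NFIAn where the WT libraries were NFIAp. In the median region MUT minus WT was -1.08 in p2, -0.92 in pMN and -0.42 in p0-p1 (log2), against 0.04, 0.05 and 0.03 over all intervals. The p2 and pMN difference from p0-p1 was smaller in MUT by a median of 0.55, and the MUT difference was 59.4% of the WT difference in the median region (interquartile range 25.5% to 85.6%). It was at or above the WT difference in 425 regions (13.7%) and at or below 0 in 258 (8.33%). Across regions the MUT and WT day 11 differences had a Pearson r of 0.205.

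**Figure D4:**
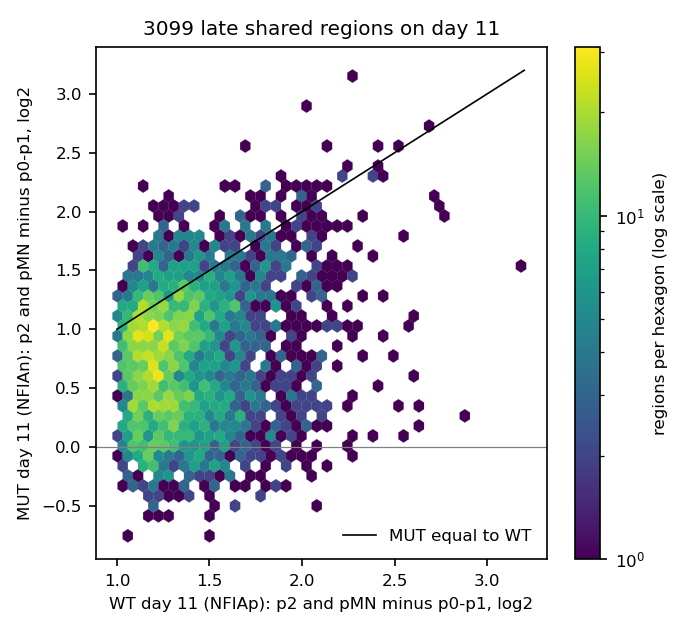
The mean of p2 and pMN minus p0-p1 on day 11 in MUT (NFIAn, vertical axis) against WT (NFIAp, horizontal axis), log2 scale, for the 3099 regions, with colour giving regions per hexagon on a log scale. The diagonal line marks equal differences; 425 regions lie on or above it, and 258 lie at or below 0 on the MUT axis.

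Well covered regions at the ends of that spread differ in kind. Interval_19585 had 4.02, 6.68 and 4.59 normalised reads in p2 and 8.72, 5.88 and 6.53 in pMN on MUT day 11, against 6.85, 3.58 and 3.58 in p0-p1. All MUT libraries of Interval_19585 thus stayed near the values of day 5, while WT day 11 reached 335 to 586 in p2 and pMN. It lies in a run of intervals that shift together between the genotypes. Interval_98011 had 59.3, 35.3 and 49.5 in p2 and 25.1, 32.3 and 38.2 in pMN on MUT day 11, against 38.5, 23.3 and 36.7 in p0-p1, with overlap, while WT p2 and pMN had 337 to 473. Interval_143923 had 14.1, 17.2 and 9.17 in p2 and 28.3, 16.7 and 19.6 in pMN on MUT day 11, against 5.13, 4.48 and 5.37 in p0-p1, far under the 311 to 671 of WT p2 and pMN. Unlike in the regions before it, its MUT groups did not overlap, and it was called higher in p2 and pMN (1.12, SE 0.27, limma adjusted p 0.0012). The difference of Interval_143923 was already 0.75 on MUT day 5, at low values, with a group mean of 1.46 in p0-p1. Its widening from MUT day 5 to day 11 was 0.38 and not called (SE 0.39, limma adjusted p 0.52).

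At the other end, Interval_145796 had 484, 568 and 455 normalised reads in p2 and 313, 416 and 327 in pMN on MUT day 11, against 70.2, 117 and 83.3 in p0-p1. In WT day 11 Interval_145796 had 1149, 1178 and 1023 in p2 and 876, 1058 and 1062 in pMN, against 422, 611 and 421 in p0-p1. Its MUT levels were therefore lower in p2, pMN and p0-p1 while the difference between populations was wider, 2.18 in MUT and 1.13 in WT. Among the 6 widest well covered WT regions, Interval_84730, Interval_85280 and Interval_16481 kept most of their difference in MUT. The day 11 difference of Interval_84730 was 2.03 in MUT and 2.72 in WT, that of Interval_85280 was 1.94 in MUT and 2.74 in WT, and that of Interval_16481 was 2.16 in MUT and 2.70 in WT.

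Regions called on MUT day 11 were also apart earlier in the WT libraries. The 1117 had a median difference of 0.41 on WT day 9 and the 1982 had 0.14, and their mean values over all libraries, those of MUT day 11 among them, had medians of 41.2 and 18.5 normalised reads. Level and call moved together: in 4 equal bins of the regions by mean value, 14.7%, 31.5%, 42.6% and 55.4% were called on MUT day 11 from the lowest to the highest bin, against 2.15%, 2.74%, 3.58% and 3.19% of all tested intervals in the same ranges of mean value. The part of level in the call was not tested.

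The NFIA fractions of WT day 9 compare cells of 1 day and 1 labelled population that were sorted with and without NFIA. In p2, every NFIAp library lay nearer to pMN than the NFIAn libraries in the score of pMN over p2. The part of this in the difference between the p2 fractions was not tested. The regions were more open in the NFIAp fraction of p2. In replicates 1, 2 and 3 the median region had 27.2, 12.4 and 18.7 normalised reads in NFIAp p2, against 14.0, 12.1 and 11.8 in NFIAn p2. Replicate 2, the doubted library, was the lowest of the NFIAp p2 libraries. The median change was 0.39, against 0.02 over all intervals, and limma called 115 regions higher, against a background of 1.14%, and 3 lower, against 2.61%. Leaving out that replicate gave a median of 0.55, and leaving out the 3 doubted libraries gave 505 higher (16.3%) and 0 lower, where 3.64% of all intervals were called higher and 3.03% lower. Other single libraries moved the count too: it was 39 without NFIAp replicate 1, 218 without NFIAn replicate 1, 76 without NFIAn replicate 2 and 65 without NFIAn replicate 3, and a fit of only the groups compared gave 1. The shares of all intervals in these fits are not given here.

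In pMN the NFIAp libraries had 28.1, 19.0 and 17.3 normalised reads in the median region, against 15.9 and 13.0 in NFIAn pMN, without overlap. The median change was 0.37, against 0.02 over all intervals. Limma called no region in either direction, against a background of 0.0122% higher and 0% lower, and edgeR called 1 higher. A limma fit that took the replicate number as a block called far more regions higher. Its count is given in the closing section without the share of all intervals, so it does not set the regions apart from the table at large. At an unadjusted p under 0.05, 762 regions were higher in NFIAp and 10 lower, with no background share at that cut. A change above 0 in pMN was seen in 84.9% of the regions, against 53.0% of all intervals. Leaving out single libraries gave up to 20 calls, reached without WT D9 pMN NFIAp replicate 3, with the background share not given here. Without the doubted libraries, none of them a pMN library of day 9, there were 40 (1.29%), against 0.157% of all intervals. A change above 0 was seen in p2 and in pMN in 2333 of the regions (75.3%), against 33.1% of all intervals, and without WT D9 p2 NFIAp replicate 2 in 2437 (78.6%), against 34.5%.

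The effect of the fraction in p2 was compared with that in pMN directly. The difference was 0.01 in the median region, with 2 regions called higher, against a background of 0.0629%, and 3 lower, against 1.50%. The share called higher was level with that of all intervals and the share called lower was below it. Without the doubted libraries the median was 0.18, with 11 called higher (0.355%) and 1 lower, where 0.283% of all intervals were called higher and 1.34% lower. At an unadjusted p under 0.05, 79 were higher and 74 lower with all libraries, with no background share at that cut.

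For the fractions in p2, up to 2 called regions were named in each direction. Interval_64236 had 163, 13.5 and 35.6 normalised reads in NFIAp p2, against 16.8, 3.29 and 4.21 in NFIAn p2 (2.08, SE 0.42, limma adjusted p 0.00035), and the groups overlapped. Interval_69598 had 66.7, 10.4 and 45.9 in NFIAp p2, against 10.2, 0 and 5.05 in NFIAn p2 (2.06, SE 0.36, limma adjusted p 4.5e-05), and the groups did not overlap. In pMN the change was 2.07 (SE 0.47) for Interval_64236 and 1.58 (SE 0.41) for Interval_69598, with limma adjusted p of 0.078 and 0.14. On MUT day 11 Interval_64236 had 17.4 to 36.2 in p2 and 10.3 to 36.0 in pMN, against 474 to 653 in p2 and 538 to 712 in pMN of WT day 11.

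Interval_97383 and Interval_104639 went the other way. Interval_97383 had 64.8, 21.8 and 83.4 normalised reads in NFIAp p2, against 139, 121 and 183 in NFIAn p2 (-1.46, SE 0.28, limma adjusted p 0.00019). Interval_104639 had 84.6, 38.4 and 73.0 in NFIAp p2, against 114, 132 and 169 in NFIAn p2 (-1.07, SE 0.25, limma adjusted p 0.0026). In both the doubted replicate 2 of NFIAp p2 was the lowest, and without it the changes were -0.94 for Interval_97383 and -0.76 for Interval_104639, under the size needed for a call. Without that replicate 2 the change was 2.80 for Interval_64236 and 2.72 for Interval_69598. Without WT D9 p2 NFIAp replicate 1 the change of Interval_64236 was 1.21 and no longer called.

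**Figure D5:**
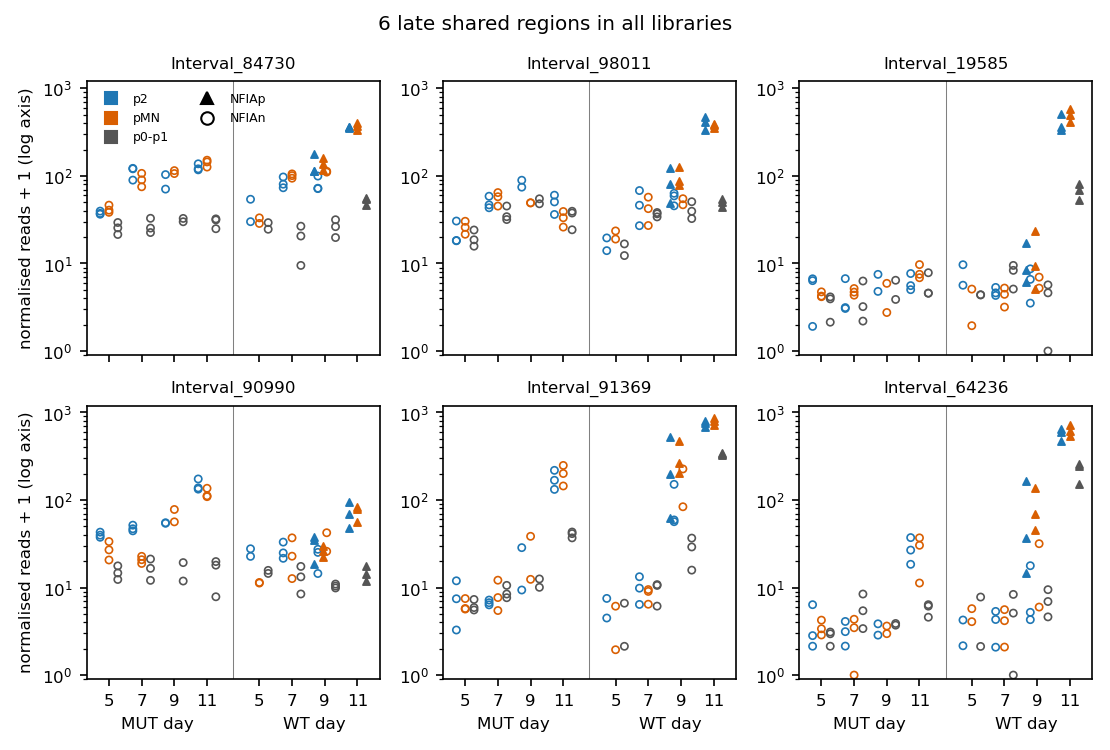
Normalised reads + 1 (log axis) of 6 regions in all 71 libraries, by day, MUT left and WT right of the line, with p2, pMN and p0-p1 side by side, NFIAp as filled triangles and NFIAn as open circles. Interval_84730 parts by day 7 in both genotypes, Interval_98011 and Interval_19585 part on WT day 11 and show no such gap in MUT, Interval_90990 parts more widely in MUT, and Interval_91369 and Interval_64236 sit higher on WT day 11 than on MUT day 11.

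Day 9 NFIAp cells had not reached day 11 levels. In the median region log2(value + 5) was 6.49 in p2 and 6.50 in pMN of WT day 11, against 4.56 and 4.68 in the NFIAp fractions of WT day 9. MUT day 11, sorted as NFIAn, stood between these at 5.17 in p2 and 5.39 in pMN. Region by region, WT day 11 lay above WT day 9 NFIAp by a median of 1.79 in p2 and 1.70 in pMN, where the day 11 values are those the rule used. No p0-p1 group of the NFIAp fraction on day 9 was analysed here, so the difference from p0-p1 has no value in that fraction.

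Regions chosen by rules of the same kind for other populations were set beside the shared ones. Late p0-p1 regions numbered 5969, late pMN regions 1129 and late p2 regions 352, each at least 1 above the higher of the other populations on WT day 11 and less than 0.3 above it on day 5. Differences in their own direction were then taken from the mean of the other populations, not the higher. For the shared regions they were the mean of p2 and pMN minus p0-p1. On WT day 9, 89 shared regions (2.87%) differed by at least 1 in their own direction, against a background of 0.746% of all intervals. The figure was 30.4% in late p0-p1 regions against 3.37%, 5.23% in late pMN regions against 1.17%, and 41.5% in late p2 regions against 2.46%. On MUT day 11 it was 36.0% of the shared regions, 57.5% of late p0-p1 regions, 22.8% of late pMN regions and 47.2% of late p2 regions, against 2.96%, 4.95%, 1.52% and 0.875% of all intervals. The median difference on MUT day 11 was 0.78 in the shared regions, 1.10 in late p0-p1 regions, 0.62 in late pMN regions and 0.96 in late p2 regions. On WT day 11, whose values chose the sets, these medians were 1.32, 1.74, 1.545 and 1.30 in the same order. The sets thus started from unlike differences, and shares at a fixed cut of 1 do not compare the part kept in MUT. The sets were chosen on the same WT libraries, and the differences between them were not tested.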

How the data were processed

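ATAC-seq libraries were analysed from 1 table that the authors deposited, whose signal values are read counts per interval, each scaled by a factor of its library. The build was mm10, per the submitters' processing notes, and aligner, peak caller and counter are not given in the sources used here. Dividing a column by its smallest step returned whole reads within 0.01 for 100% of values. For WT D9 pMN NFIAn replicate 2 and MUT D11 p2 replicate 1 that step was so close to 1 that the check cannot tell scaled from unscaled reads. Reads may be copies of the same molecule. No 2 libraries held identical values.

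For each interval, log2(value + 5) was fitted by 26 group means over 71 libraries (limma 3.58.1, R 4.3.3, 45 residual degrees of freedom, mean-variance trend), after keeping intervals with at least 10 in at least 2 libraries. The members, lists and tests were chosen with earlier results of these data known. Named are the 6 regions widest on WT day 11, up to 2 called regions of largest change each way in 6 comparisons and the 2 highest and 2 lowest in MUT against WT on day 11. These have a mean at or above the median of all intervals, 31.8; the regions at the thresholds are named too. No called region met that rule for NFIAp against NFIAn in pMN or for MUT against WT on day 9.

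Same-numbered libraries had residual correlations over 0.1 in every pair in WT day 7 (lowest 0.168), WT D9 p2 fractions (0.113), MUT day 5 (0.122) and MUT day 7 (0.125). Every pair was over 0.1 on MUT day 9 too (lowest 0.218), where there were only 2 replicate numbers. In all of these the pairing comes from the data, not the labels. Settings tried were pseudocounts of 1 and 20, other filters and scalings, edgeR 4.0.16 on recovered reads, a replicate block and leaving libraries out. The limma step was tested on simulated data. Figures used matplotlib 3.10.9.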

Additional observations from a re-analysis of the deposited data

Results flagged for a closer look

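The test of a difference between effects was passed in 2 comparisons. The difference of p2 and pMN from p0-p1 differed between MUT days 11 and 5: limma called it wider on day 11 in 1124 of the 3099 regions and narrower in 1. The effect of the NFIA fraction on WT day 9 differed between p2 and pMN in a few regions: 2 were called higher in p2, against 0.0629% of all intervals, and 3 lower, against 1.50%, so the regions do not stand above the table at large. The counts were 11, against 0.283%, and 1, against 1.34%, without the doubted libraries, and fitting only the groups compared gave 0 in either direction.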

How the results depend on the processing

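Counts below are of the 3099 regions called higher unless said otherwise, and the cause of a change was not tested except where fewer regions or libraries entered. Shares of all intervals under these settings are not given in this section. A pseudocount of 1 gave 62 on WT day 7, 165 on WT day 9, 52 higher and 76 lower on MUT day 5, 49 on MUT day 7, 1 for the p2 minus pMN fraction effect and 1 for p2 over pMN on MUT day 11. A pseudocount of 20 gave 7, 22, 2 with 8 lower, and 8 in the first of these in turn, 30 on MUT day 9, 579 on MUT day 11, 660 for its widening from day 5, 25 and 11 for the fractions of p2 and pMN, 1 for their difference, and 391 with 116 lower in MUT p0-p1 between days 5 and 11. Membership itself was 1514 with a pseudocount of 20, of which 1347 were shared with the 3099. Quantile normalization gave 139 on WT day 9, 6 on MUT day 5 and 1 for the pMN fractions. Equal library totals gave 1 for the fraction difference and 1 for p2 over pMN on MUT day 11. A mean value of at least 30, which left 1331 regions, gave 679 on MUT day 11, 663 for its widening, 72 for the p2 fractions, 1 for the fraction difference, and 819 in p2 and 906 in pMN between MUT days 5 and 11. Fitting only the groups compared gave 1 for the p2 fractions and 0 for the fraction difference. EdgeR on recovered reads gave 50 on WT day 7, 180 on WT day 9, 35 higher and 80 lower on MUT day 5, 42 on MUT day 7, 351 and 1 for the fractions of p2 and pMN, 1 for their difference and 3 for p2 over pMN on MUT day 11. Without the doubted libraries there were 505 and 40 for the fractions of p2 and pMN and 11 for their difference. The replicate block gave 268 for the pMN fractions and 8 for the fraction difference, with the shares of all intervals not given here. Same-numbered libraries of the pMN fractions had residual correlations of 0.068 and 0.368, with a mean of 0.218. That mean was 0.219 in the p2 fractions, so pairing in pMN is left undecided. Where every pair was over 0.1 and there were 3 replicate numbers, the block moved no count of regions called higher by over 1.5 times. Leaving out 1 library at a time gave 19 to 30 on WT day 7, 53 to 145 on WT day 9, 11 to 21 higher and 20 to 48 lower on MUT day 5, 22 to 30 on MUT day 7, 39 to 132 on MUT day 9, 976 to 1243 on MUT day 11, 996 to 1244 for its widening, 0 to 5 for p2 over pMN, 742 to 815 higher and 199 to 219 lower in MUT p0-p1, 1440 to 1582 in p2 and 1623 to 1809 in pMN between days 5 and 11, 39 to 503 and 0 to 20 for the fractions of p2 and pMN, 0 to 10 for their difference and 0 for MUT against WT on day 9, while membership ran from 2302 to 3722. Directions changed in 3 comparisons, whose medians with all libraries lay within 0.05 of 0. On MUT day 7, calls lower outnumbered calls higher with a pseudocount of 1 (65 lower) and with edgeR (58 lower), and the median of -0.04 was 0.0074 under quantile normalization. The median of the fraction difference, 0.0082, was -0.05 with the replicate block and ran from -0.18 to -0.01 in 6 of the fits without 1 library, and calls higher outnumbered calls lower without the doubted libraries, without WT D9 p2 NFIAp replicate 2 (10 and 1) and without WT D9 pMN NFIAp replicate 1 (3 and 1). The median of MUT against WT on day 9, -0.05, was 0.0065 to 0.02 without MUT D9 p0-p1 replicate 1, MUT D9 pMN replicate 2 or WT D9 pMN NFIAn replicate 1. In the other comparisons neither the median nor the balance of calls changed direction. Of the values of single named regions and other counts, 417 stayed the same, a named region by staying called and a count by staying within 1.5 times. Another 55 counts moved by more than that, and 13 values of named regions were no longer called. Median counts near 10 per region on days 5 and 7 limit what could be seen there.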
